A study of Drosophila melanogaster with 30 samples.

Results

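Chromosome 4 is the small autosome of Drosophila melanogaster, and its RNA and replication timing are described here in wing discs whose histone genes were replaced. The members are all chromosome 4 entries of the authors' deposited RNA tables, 114 of 11505 in males and 101 of 10775 in females, and all chromosome 4 windows of the 4 timing tables. An entry is a genomic interval with a fold change, and it received a gene name where it and 1 RefSeq gene overlapped reciprocally by more than 0.9, which named 86 male and 78 female entries. All 78 genes named in females were also named in males. RefSeq places 114 genes on the chromosome, of which 80 are protein-coding, and of the coding genes JYalpha and NfI had no entry in either table. A timing window is 100 kb long, a new one starts every 10 kb, and between 132 and 135 windows on chromosome 4 carried a value, depending on the table.

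The wing disc is the larval epithelium that forms the adult wing. Larvae of 3 genotypes were ΔHisC, UAS-2xEYFP / ΔHisC, twi-GAL4, that is, they lacked the endogenous replication-dependent histone gene cluster and carried a marker that the early mesodermal twi-GAL4 driver switches on, and they lived on a transgene of 12 copies of a histone repeat of 5 kb. The transgene encoded wild-type histones (HWT), histone H4 with arginine in place of lysine 16 (H4K16R) or histone H3 with arginine in place of lysine 9 (H3K9R). The remaining genotype, yw, was used as the further reference for timing and is labelled with no histone transgene. All discs came from wandering larvae of the last instar. RNA was compared between H4K16R and HWT in each sex, with 3 libraries per group and 30 discs pooled in each library. Repli-seq, which compares DNA of sorted S-phase nuclei with DNA of G1 nuclei, was available for HWT and H4K16R of both sexes and for H3K9R and yw females, with 2 S-phase and 1 G1 library per group. A high S/G1 value means that a sequence was copied early, and the files give 1 value per group and window.

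Chromosome 4 carries heterochromatin marks along its gene-bearing arm. Histone H3 methylated at lysine 9 by the Setdb1 homologue eggless and the protein HP1a cover much of it, and many of its genes are transcribed in this setting, where the chromosome-specific protein Pof binds. Lysine 16 of histone H4, once acetylated, is a mark of open chromatin and of the dosage-compensated male X. Lysine 9 of histone H3 is the residue whose methylation HP1a binds, and heterochromatin is known to be copied late in S phase.

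The first question is how RNA on this autosome depends on lysine 16 of histone H4 in the sex with a compensated X. By the authors' deposited table of males, 22 of 114 chromosome 4 entries (19.3%) had an adjusted p under 0.05 from edgeR, 9 of them higher and 13 lower in H4K16R. The background by the authors' deposited table was 15.6% over all entries, 9.48% over the large autosomes 2 and 3 and 45.7% over the X. Lower entries made up 11.4% on chromosome 4, against 10.3% of all entries and 3.39% of those on the large autosomes of the authors' deposited table. For higher entries the share was 7.89%, against 5.35% and 6.09% by the authors' deposited table. The median log2 fold change was -0.02 on chromosome 4, 0.08 on the large autosomes and -0.43 on the X by the authors' deposited table, and 46.5% of chromosome 4 entries lay above 0, against 60.5% on the large autosomes. These shares describe the entries; they are not a test of the chromosome. Overlapping entries share reads, which was the case for 56 of the 114, and joining them into 84 loci left 5 loci higher and 11 lower by the authors' deposited table.

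Among the 72 named protein-coding genes of chromosome 4 by the authors' deposited male table, 2 were higher, 10 lower and 60 not called, between the extremes of -2.69 and 4.62 on the log2 scale. The 9 higher entries came from few places, the unc-13 locus, toy and the stretch distal to the last gene. The 13 lower entries included genes named only by CG numbers in the proximal part, secreted ligands of the TGF-beta family, and apolpp, Cals and Cadps farther along, by the same table. The directions follow from reading the fold change as H4K16R over HWT, which the tables do not state and which was taken from the lower X-linked values in males.

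**Figure D1:**
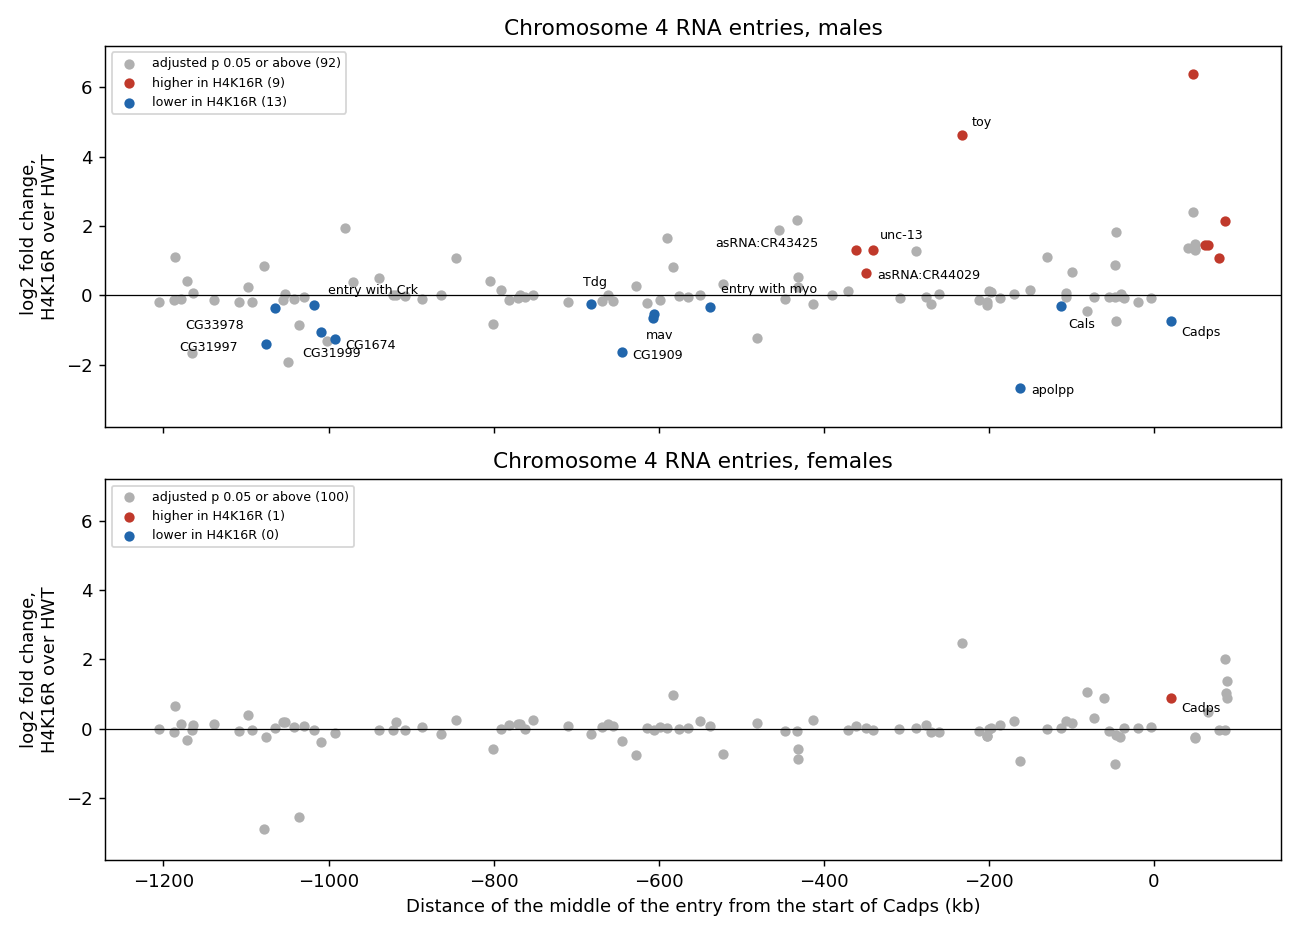
Log2 fold change (H4K16R over HWT) of each chromosome 4 entry by the authors' deposited tables, plotted against the distance of its middle from the start of Cadps in kb, for 114 male entries (top) and 101 female entries (bottom); red points were called higher and blue points lower at an adjusted p under 0.05. In males 9 entries were higher and 13 lower, with a row of higher points to the right of Cadps, while in females the 1 called entry is Cadps.

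Unc-13, which primes synaptic vesicles for release, had the lowest adjusted p of any chromosome 4 entry. The gene spans 4:867824-912331 (dm6), and its log2 fold change by the authors' deposited table was 1.31 in males (adjusted p = 1.56e-09) and -0.03 in females (adjusted p = 0.94). Both antisense RNA genes of the locus were higher in males as well, asRNA:CR43425 at 1.30 (adjusted p = 0.013) and asRNA:CR44029 at 0.63 (adjusted p = 6.57e-05) by the authors' deposited table. In females the authors' deposited table gave them 0.06 and 0.02, and neither was called. The RNA kit keeps the strand, but whether the counting used it is not stated in the labels or headers, so reads of unc-13 and of the antisense genes cannot be told apart. Of the other synaptic and neuronal genes on the chromosome, mGluR, the metabotropic glutamate receptor, had 1.28 (adjusted p = 0.48) and the kainate-type receptor gene Ekar had 1.64 (adjusted p = 0.14) by the authors' deposited male table, without passing. In all, 1 of 11 measured members of that list was higher and 2 were lower by the authors' deposited male table, with a list median of -0.04, where all entries had 0.02. Neuronal markers outside the chromosome did not move one way: of 7 by the authors' deposited male table, brp was higher (1.66) and elav lower (-1.03). Elav lies on the X, where 44.6% of entries were lower by the authors' deposited male table. The part of neurons in the unc-13 value was not tested. In bulk discs, more or fewer cells of a type and more or less RNA per cell cannot be told apart.

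Toy, a Pax6 transcription factor that acts with eyeless in eye formation, had the highest fold change of any named gene of the chromosome. The authors' deposited table gave 4.62 in males (adjusted p = 7.73e-04) and 2.48 in females (adjusted p = 0.19), both with wide recovered standard errors of 1.11 and 0.91. Its neighbour in function, ey, had 0.34 in males and -0.72 in females by the authors' deposited table, neither called. Of 17 transcription factor and chromatin genes matched by symbol in males, 1 was higher and 0 lower in the authors' edgeR comparison. Of 16 in females 0 were called, and the list medians were 0.01 in both sexes by the authors' deposited table. Tdg, listed under an older symbol, was not matched and is not in these counts, and it was lower in males (-0.26, edgeR adjusted p = 0.015). The transcription effectors of Wnt signalling, pan and lgs, had -0.13 and 0.15 in males by the authors' deposited table, and the entry that holds ci, the effector of Hedgehog signalling, had -0.11. In females the authors' deposited table gave 0.13, 0.00 and 0.12, and none of the 6 values was called. Some uncalled members lay far from 0 with wide recovered standard errors: dati, a zinc finger factor, had 1.09 (standard error 0.68) and sv, a Pax2 homologue, 1.10 (standard error 0.52) in males, and onecut had -0.75 (standard error 0.85) in females, by the authors' deposited table. Pho, the DNA-binding Polycomb-group protein, had -0.04 and -0.06, and Sox102F, a SoxD factor, had -0.26 (adjusted p = 0.055) and 0.26 (adjusted p = 0.27) in males and females of the authors' deposited table.

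Both ligands of the TGF-beta family that were measured well fell in males. Maverick (mav) had -0.54 (adjusted p = 4.43e-04) by the authors' deposited male table, and an entry without a name inside mav had -0.66 (adjusted p = 2.75e-04). The entry that holds myo, the gene of myoglianin, had -0.34 (adjusted p = 0.010) by the authors' deposited male table. Actbeta, the activin-beta ligand, had 0.15 with a recovered standard error of 0.88 and was not called by the authors' deposited table. In females mav had -0.04 and the myo entry 0.09 by the authors' deposited table, neither called. Guidance genes lay slightly below 0 in males without passing: Ephrin had -0.16, its receptor gene Eph -0.22 (adjusted p = 0.057), PlexA -0.13 and the entry that holds PlexB -0.18 by the authors' deposited table.

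A group of called entries lay close together in the proximal part of the arm. In the 91.25 kb from CG31997 to CG1674 (4:154654-245903, dm6), a stretch chosen after its values were seen, 5 of 12 male entries were lower and 11 were below 0, with a median of -0.61 by the authors' deposited table. CG31997 had -1.41 (adjusted p = 5.75e-09), CG33978 -0.35 (adjusted p = 0.0014), CG31999 -1.05 (adjusted p = 3.53e-04) and CG1674 -1.25 (adjusted p = 0.018) by the authors' deposited male table. The entry that holds Crk, an SH2 and SH3 adaptor of receptor signalling, overlaps CG31999 and had -0.29 (adjusted p = 0.021) by the authors' deposited table. The 10 female entries of the same stretch had a median of -0.01 by the authors' deposited table, and 0 were called. Of the female values, CG31999 had -0.39 and CG31997 -0.23 by the authors' deposited table. Farther along, Tdg, which encodes a thymine DNA glycosylase, had -0.26 (adjusted p = 0.015) and CG1909 -1.64 (adjusted p = 0.028) by the authors' deposited male table.

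Near the distal end, Cadps, a calcium-dependent activator of secretion from dense-core vesicles, was called in both sexes with opposite signs. Its gene spans 4:1230837-1271759 (dm6) and is the last annotated one of the chromosome. The authors' deposited table gave -0.75 in males (adjusted p = 4.10e-04) and 0.89 in females (adjusted p = 0.0077). Cals, the calsyntenin gene, had -0.31 in males (adjusted p = 0.045) and 0.01 in females by the authors' deposited table. Apolpp, the apolipophorin that carries lipid in the hemolymph and is made in the fat body, had -2.69 in males (adjusted p = 0.0055) and -0.94 in females (adjusted p = 0.73), with recovered standard errors of 0.76 and 0.84 from the authors' deposited table. Fat body markers on other chromosomes moved with it: 5 of 6 measured were lower in males, between -2.88 and -1.60, and FASN1 had 0.33 by the authors' deposited table. In females the 7 measured fat body markers lay between -1.47 and -0.71 by the authors' deposited table, with FASN1 alone called. Larval muscle markers had 9 of 10 below 0 in males, with a median of -1.24 and 1 called lower (Mlc2, -1.37), by the authors' deposited table. Hemocyte markers had 5 of 6 below 0, with a median of -0.71 and 0 called, by the authors' deposited table. In females the medians were -0.22 over 10 muscle and -0.03 over 4 hemocyte markers, with 0 called, by the authors' deposited table. Whether other tissue in the dissections accounts for the apolpp value was not tested.

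The chromosome 4 genes listed here for translation and RNA decay, mitochondrial function, protein turnover, kinases and repair were not called. Tdg, lower in males as given above, is not among them. None of 5 genes of translation and RNA decay was called in males, where the ribosomal protein gene RpS3A had 0.05, the initiation factor gene eIF4G1 -0.08, the GW182 gene gw (by the entry that holds it) -0.02 and Gyf 0.13 by the authors' deposited table. The mitochondrial genes ATPsynbeta, a subunit of ATP synthase, and ND-49, a subunit of respiratory complex I, had 0.11 and 0.01 in males and 0.03 and 0.13 in females by the authors' deposited table. Rad23, the kinase genes Asator and Dyrk3, and Rnf11 lay between -0.07 and 0.02 in males by the authors' deposited table, and in females between -0.05 and 0.24, the highest being Asator (unadjusted p = 0.014). Of these 11 genes, 0 passed in either sex by the authors' edgeR comparison. Precise values were common: 72 of the 114 male entries had a recovered standard error of at most 0.5, and 50 of those 72 lay within 0.25 of 0 by the authors' deposited table.

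Beyond the last gene, 5 of 10 male entries were called higher, in 3 loci, where 5.35% of all entries of the authors' deposited table were. The sequence from the end of Cadps to the end of the chromosome at 1348131 is 76.4 kb long, and all 10 male entries in it had positive fold changes, with a median of 1.45 and a range from 1.07 to 6.38 by the authors' deposited table. No entry lies beyond 1320245. Among those called higher, the longest, 4:1283429-1302269, had 1.45 (adjusted p = 1.67e-05), 4:1303794-1316675 had 1.07 (adjusted p = 0.0014) and 4:1314437-1320245 had 2.15 (adjusted p = 1.11e-07) by the authors' deposited table. The short entries 4:1278585-1278751 and 4:1296042-1296245 had 6.38 (adjusted p = 2.85e-06; recovered standard error 1.12) and 1.44 (adjusted p = 2.84e-04) by the authors' deposited table. In females 5 of 9 entries there lay above 0, between -0.26 and 2.02, and 0 were called by the authors' deposited table, where 1 had an unadjusted p under 0.05. A female entry with nearly the same borders, 4:1303808-1316795, had -0.05 by the authors' deposited table, against 1.07 in males. The male and female values were not tested against each other here, since the entries have no names and their borders differ. The RefSeq table used here lists no gene in this end, and reads that fit repeated sequence elsewhere could fall in it; how such reads were treated is not stated in the labels or headers.

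In females the same comparison left chromosome 4 nearly uncalled. The authors' deposited table of females had 1 chromosome 4 entry of 101 with an adjusted p under 0.05 from edgeR (0.99%), Cadps, against a background of 0.974% over all entries and 0.955% over the large autosomes. It was higher, where 0.362% of all and 0.364% of large autosome entries were; 0 were lower, against 0.613% and 0.591%, by the authors' deposited table. At an unadjusted p under 0.05 there were 9, and the median log2 fold change was 0.01 by the authors' deposited table. Besides Cadps and toy, the 9 were an entry without a name at 4:194874-195674, with -2.54 (unadjusted p = 0.0058) the only one below 0, another without a name beyond the last gene (0.88), Sox102F (0.26), the kinase gene Asator (0.24), CG11360 (0.21), the zinc transporter gene Zip102B (0.20) and CG32017 (1.06), by the authors' deposited table.

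Factors known to bind or mark chromosome 4 or heterochromatin, encoded on other chromosomes, had 3 of 13 measured genes called in males, where 15.6% of all entries were, and 0 of 12 in females, where 0.974% were, by the authors' deposited table. Pof had -0.03 in males and -0.44 in females, and the gene of HP1a had -0.06 and -0.07 by the authors' deposited table, with no call. In males the SUMO ligase gene Su(var)2-10 (0.24, adjusted p = 0.049) and the HP1a partner gene Su(var)2-HP2 (0.21, adjusted p = 0.031) were higher, and the X-linked methyltransferase gene G9a was lower (-0.44, adjusted p = 6.18e-04) by the authors' deposited table. Wing epithelium markers, which define the tissue, had entries for 10 of 10 genes in both tables, with 3 lower in males (the X-linked ct and sd, and ap) and 0 called in females by the authors' deposited table.

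Whether the H4K16R effect itself differed between the sexes was tested gene by gene. The fold changes of the authors' deposited tables were subtracted, and a two-sided z test with recovered standard errors was adjusted by Benjamini-Hochberg over 8822 genes named in both. On chromosome 4, 7 of 78 genes (8.97%) passed, against 7.89% of all genes, 4.06% on the large autosomes and 26.5% on the X. The effect was lower in males for Cadps (male minus female -1.64, z test, Benjamini-Hochberg adjusted p = 2.60e-06), CG31997 (-1.18, adjusted p = 0.0032), Sox102F (-0.52, adjusted p = 0.011), mav (-0.50, adjusted p = 0.027) and CG33978 (-0.37, adjusted p = 0.047), from the authors' deposited tables. It was higher in males for unc-13 (1.34, z test, Benjamini-Hochberg adjusted p = 5.21e-07) and asRNA:CR44029 (0.62, adjusted p = 0.011), from the authors' deposited tables. Sox102F passed this test although neither sex alone did, with a negative value in males and a positive one in females. For toy and apolpp the sexes were not told apart (z test, Benjamini-Hochberg adjusted p = 0.41 and 0.40). At an unadjusted p under 0.05, 15 of the 78 differed. The male value was below the female one in 52 of 78 genes, and the median difference was -0.13, where the large autosomes had 0.07, from the authors' deposited tables. With the large autosome median subtracted in each sex, which moves the male scale by 0.08, the split was 9 lower and 2 higher, the additional genes being pan, zfh2, Eph and Cals.

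**Figure D2:**
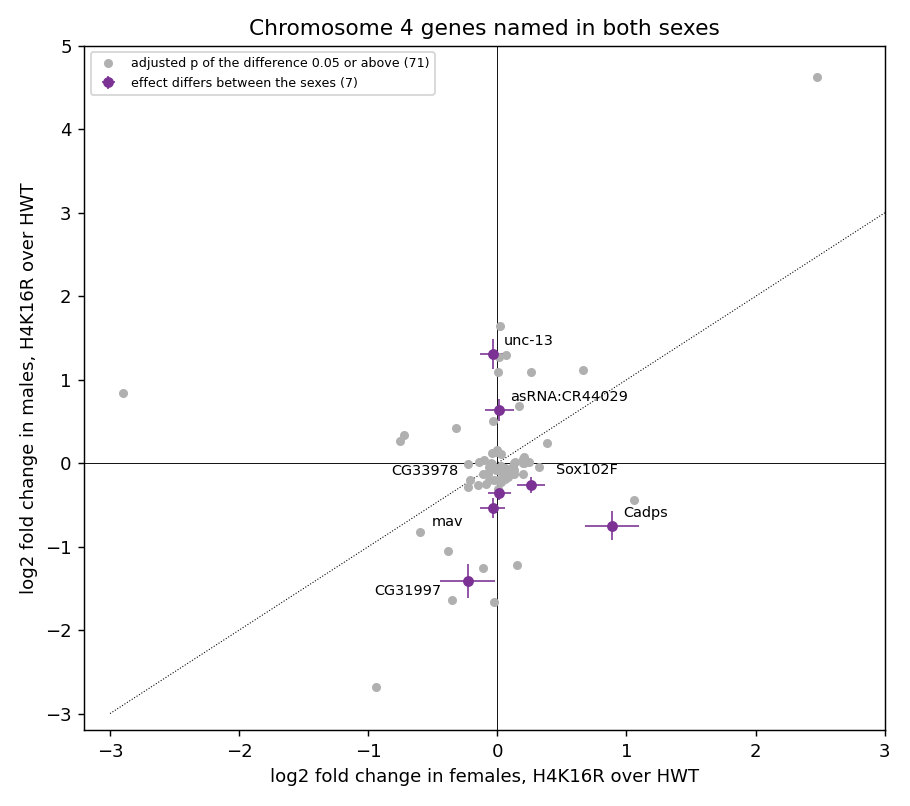
Log2 fold change (H4K16R over HWT) in males against that in females for the 78 chromosome 4 genes named in both of the authors' deposited tables; purple points, with bars of 1 recovered standard error, are the 7 genes whose effect differed between the sexes, and the dotted line marks equal effects. Unc-13 and asRNA:CR44029 lie above the line, and Cadps, CG31997, Sox102F, mav and CG33978 lie below it.

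Chromosome 4 replicated earlier than the pericentromeric heterochromatin of chromosomes 2 and 3. The median log2 S/G1 of its windows was 0.042 in HWT females of the H4K16R table and 0.068 in those of the H3K9R table, 0.020 in yw females and 0.003 in HWT males. Pericentromeric windows of chromosomes 2 and 3 had medians of -0.157, -0.144, -0.159 and -0.242 in the same 4 profiles. Set against the median of the large autosomes, chromosome 4 lay 0.024, 0.017 and 0.016 above it in the 3 female profiles and 0.018 below it (-0.018) in HWT males. Each value is 1 per group and window, and neighbouring windows share most of their sequence, so the timing results carry no p-value.

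The profiles along the chromosome resembled each other in part. Over 13 windows that do not overlap, HWT females of the H4K16R table and HWT males had a Pearson correlation of 0.75 (Spearman 0.64), and H4K16R females and males one of 0.78 (Spearman 0.76); the windows lie on 1 chromosome and are not independent, and these are descriptions. The extremes differed in place. The earliest full windows were 4:80001-180000 in HWT females (0.084 in the H4K16R table and 0.138 in the H3K9R table), 4:620001-720000 in HWT males (0.079; 0.025 in HWT females of the H4K16R table) and 4:10001-110000 in yw females (0.079). The latest were 4:690001-790000 in HWT females of the H4K16R table (-0.017), 4:1210001-1310000 in those of the H3K9R table (-0.036), 4:720001-820000 in HWT males (-0.108) and 4:1240001-1340000 in yw females (-0.065). The window at 4:720001-820000 covers bt, the gene of the giant muscle protein projectin, and MED26, with parts of ey and Sox102F.

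In H4K16R males chromosome 4 replicated earlier than in HWT males along almost its whole length. The median rose from 0.003 to 0.038, from 0.018 below the large autosome median to 0.022 above it. The difference was above 0 in 120 of 132 windows (90.9%), against 53.5% of the windows of the large autosomes, and its median was 0.038, against 0.003. Its size was modest: 0 windows reached 0.1, where 1.23% of the large autosome windows did, and 42 (31.8%) reached 0.05, against 8.92%. The widest gap, 0.097, lay at 4:720001-820000, where HWT males had -0.108 and H4K16R males -0.011. The spread among windows narrowed, from an SD of 0.049 in HWT to 0.037 in H4K16R males. It narrowed elsewhere in males too, from 0.137 to 0.125 on the large autosomes and from 0.106 to 0.102 on the X. In females the chromosome 4 SD was wider in H4K16R, at 0.052 against 0.028 in HWT of the same table.

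The difference in males was uneven along the arm. The HWT male profile had 4 late stretches, runs of full windows at or below its lower quartile of -0.024. They were chosen after that profile was seen, so their values are a description, and the choice itself favours a gap in males. At 4:190001-390000 the median over 11 windows was -0.049 in HWT and 0.0099 in H4K16R males. At 4:690001-890000 it was -0.056 and 0.00032 over 11 windows, and at 4:1060001-1190000 -0.032 and 0.011 over 4. At the distal end, 4:1190001-1340000, it was -0.074 and -0.028 over 6 windows. In between, H4K16R males were not ahead everywhere: at 4:400001-500000 they had 0.051 against 0.061 in HWT, and the lowest difference, -0.026, lay at 4:630001-730000.

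**Figure D3:**
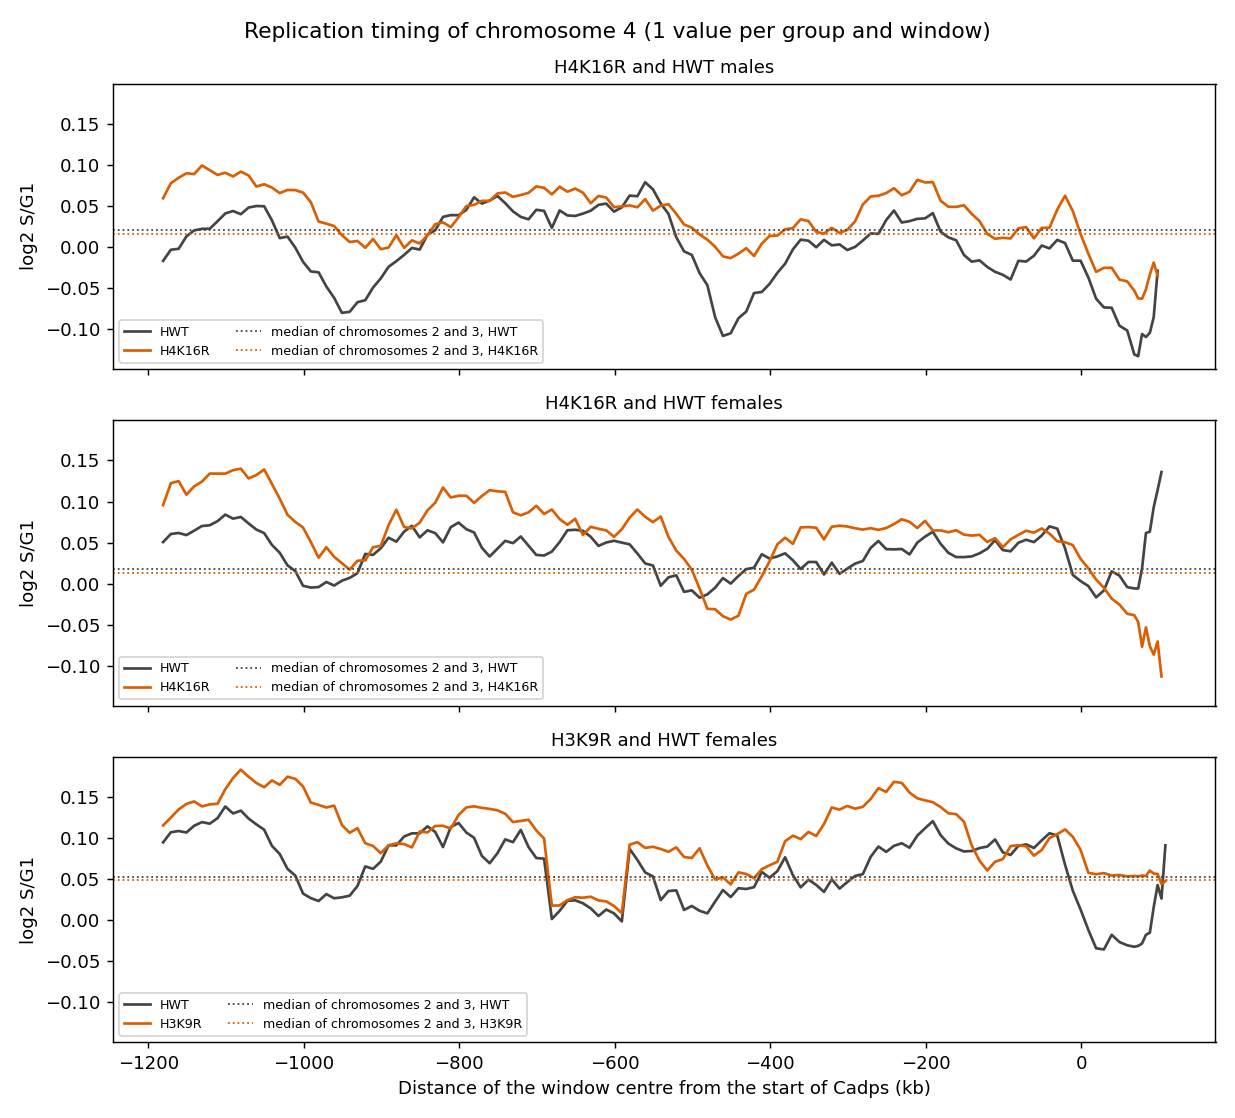
Log2 S/G1 of chromosome 4 in windows of 100 kb against the distance of the window centre from the start of Cadps in kb, for H4K16R and HWT males (top), H4K16R and HWT females (middle) and H3K9R and HWT females (bottom); dotted lines are the medians of chromosomes 2 and 3, and each line has 1 value per group and window. The mutant line lies above HWT in 120 of 132, 108 of 133 and 120 of 134 windows, and the H3K9R table has a step down in both genotypes near the middle of the arm.

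In H4K16R females the chromosome also lay above HWT in most windows, with a pattern along the arm that differed from the male one. The median difference was 0.025, and 108 of 133 windows (81.2%) were above 0, against 44.8% on the large autosomes. No window was higher by 0.1 (0 of 133; 0.761% on the large autosomes), and 5 were lower by 0.1 (1.94% on the large autosomes). Those 5 were windows cut short by the end of the chromosome. At 4:1320001-1348131 HWT females rose to 0.136 and H4K16R females fell to -0.113, while in the other female table HWT had 0.026 there. The highest difference was 0.084, at 4:640001-740000. In the 4 late stretches of the male profile, taken in order along the arm, the median H4K16R minus HWT difference was 0.015, -0.027, 0.0059 and -0.015 in females, where it was 0.075, 0.059, 0.043 and 0.048 in males. Because low HWT male values picked these stretches, the choice favours a wider gap in males, and the stretches cannot show a sex difference. Over 13 windows without overlap, the male and female H4K16R differences had a Pearson correlation of -0.018 and a Spearman correlation of 0.15, and 10 of 13 were above 0 in both.

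The female result depended on which HWT profile was used. The HWT female profile is given in both female tables and differs between them by a median of 0.037 over the genome. With the profile of the other table, the chromosome 4 median of H4K16R minus HWT turned to -0.0022, while the large autosomes moved to -0.041. With the large autosome median subtracted from each profile as well, it was 0.037, and 117 of 133 windows (88%) lay above 0. Relative to the large autosomes, chromosome 4 was thus ahead of HWT with either profile.

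H3K9R females, with the histone residue that heterochromatin methylates replaced, had 7 of 134 chromosome 4 windows higher by 0.1 than HWT. The chromosome 4 median rose from 0.068 in HWT to 0.101 in H3K9R, and 120 of 134 windows (89.6%) lay above HWT, against 47.5% on the large autosomes. The 7 windows follow one another from 4:160001 to 320000 and overlap. Of the large autosome windows 1.14% were higher by 0.1, and so were 121 of 1645 pericentromeric windows of chromosomes 2 and 3. With the HWT profile of the other female table the chromosome 4 count was 28, but the large autosome median also moved, to 0.034. With that profile and the large autosome median subtracted, the chromosome 4 median difference was 0.037. On chromosome 4, 0 windows were lower by 0.1 (0.651% on the large autosomes). The median difference was 0.034, and 52 windows (38.8%) reached 0.05, against 9.28% on the large autosomes. The widest gap was at 4:180001-280000, with 0.163 in H3K9R and 0.032 in HWT, a difference of 0.131. That window holds CG31999 and CG1674, both lower in H4K16R males; RNA of H3K9R is not analysed here. At the distal end, 4:1190001-1340000, the median was 0.055 in H3K9R and -0.029 in HWT over 6 windows. At 4:690001-890000 the profiles lay closer, at 0.058 and 0.038, and at 4:1060001-1190000 H3K9R was below HWT, at 0.073 against 0.086.

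Both genotypes of the H3K9R table shared a step at the middle of the arm. The 10 windows that start from 4:500001 to 4:590001 had HWT values between -0.0016 and 0.024 and H3K9R values between 0.0084 and 0.028. The windows just before and just after had 0.075 and 0.087 in HWT and 0.099 and 0.092 in H3K9R. In the other 5 profiles the same 10 windows lay between 0.017 and 0.090. All 10 windows contain the stretch 4:590001-600000, and the windows just before and just after do not. The length of the step therefore does not show how much sequence it rests on. The cause of the step was not tested.

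Set beside the other chromosomes, chromosome 4 had the highest median difference of 2L, 2R, 3L, 3R, X and 4 in each of the 3 mutant comparisons. In males the X had -0.016 and the autosomal arms between -0.0031 and 0.0090 for H4K16R, against 0.038 on chromosome 4. Pericentromeric windows of chromosomes 2 and 3 also lay above 0 in H4K16R males (0.026) and H3K9R females (0.019), but had -0.040 in H4K16R females, where chromosome 4 had 0.025. The labels name 1 set of HWT female Repli-seq libraries, but which of them and what scaling gave each table's HWT profile is not stated. The H4K16R and H3K9R females may thus share control libraries, and their values are given side by side and not related to each other.

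**Figure D4:**
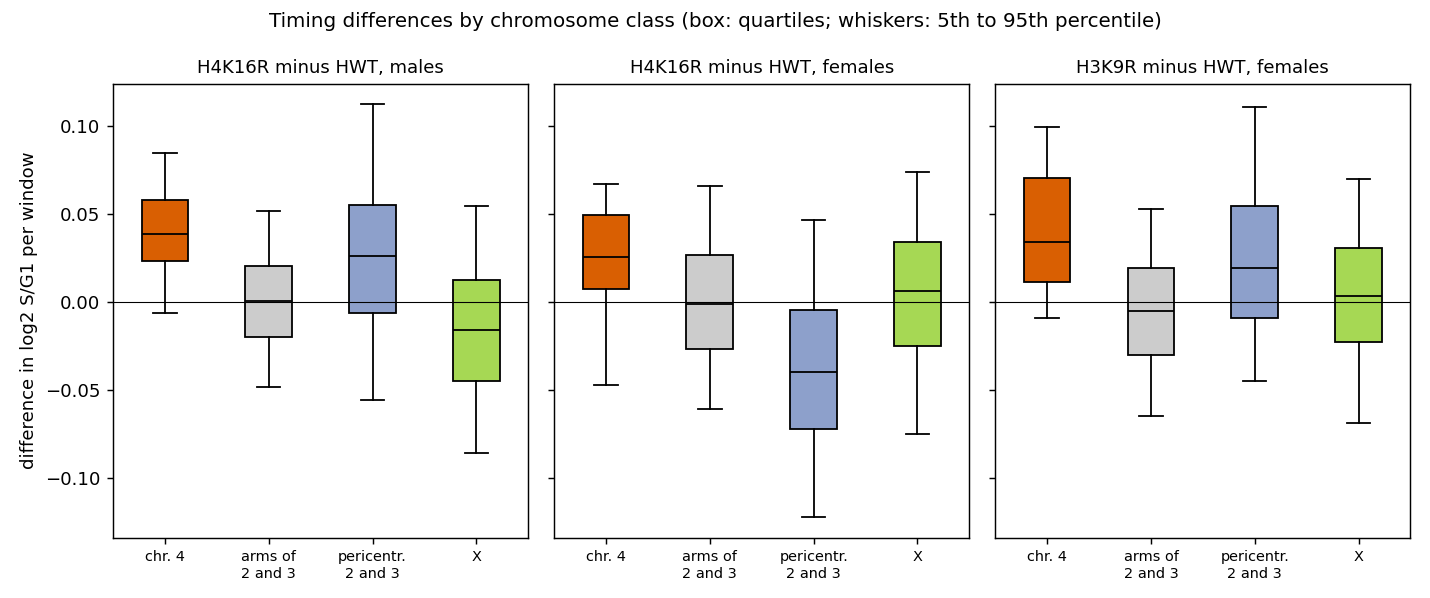
Difference in log2 S/G1 between mutant and HWT per window, for chromosome 4, the arms of chromosomes 2 and 3, their pericentromeric parts and the X, in H4K16R males, H4K16R females and H3K9R females; boxes show quartiles with the median and whiskers run between the outer percentiles given in the title, over windows, which are not replicates. The chromosome 4 medians of 0.038, 0.025 and 0.034 lie above those of the other classes in each panel.

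Between the sexes, chromosome 4 was later in males. The HWT male minus HWT female difference had a median of -0.032, with 17 of 132 windows above 0, where the large autosomes had -0.003 and 47.2% above 0. Pericentromeric windows of chromosomes 2 and 3 were later in males as well, with a median of -0.091 in HWT and 8.39% above 0. Of those 1598 windows, 693 were lower by 0.1 in HWT, and in H4K16R their median was -0.024. Of the 132, 11 windows were lower by 0.1, where 7.6% on the large autosomes were, so the share is near the background. That count was 4 with full windows only, 31 with the HWT profile of the other female table, which moved the median to -0.071, and 2 with that profile and the large autosome median subtracted. The lowest value, -0.179, lay in the shortened end window 4:1300001-1348131. Among full windows the lowest was -0.115, at 4:720001-820000. In H4K16R the male minus female median was -0.021, with 20 of 132 windows above 0 (48.2% on the large autosomes), 0 lower by 0.1 (0.821% there) and 0 higher by 0.1 (0.166% there). The HWT minus yw difference in females had a median of 0.013, with 89 of 133 windows above 0 (66.9%, against 53.9%). Of these windows 17.3% reached 0.05 (7.71% on the large autosomes). At the shortened end 5 windows were higher by 0.1 (0.67% on the large autosomes), and 0 were lower by 0.1 (0.706% there). With the HWT profile of the other female table the median was 0.042, where the large autosomes had 0.037. With the large autosome median subtracted, the medians were -0.00092 and, with the other profile, -0.0055.

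RNA and timing were set side by side by position. The 9 entries that were higher in males lay in windows with a median HWT male timing of -0.096 and a median H4K16R minus HWT difference of 0.056 in males, while the 13 lower ones had 0.023 and 0.039, and the 92 uncalled ones 0.002 and 0.042. Of the 9, 5 share the distal end, so these medians rest on few places. At the distal end male RNA and male timing both had higher values in H4K16R, whereas the stretch from CG31997 to CG1674 had lower RNA and earlier timing in H4K16R males.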

How the data were processed

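Tools listed in the submitters' processing notes, with no role given, are edgeR, limma, TopHat, bedtools, SAMtools 1.6, Bowtie2 2.3.2 and Cufflinks 2.2.1, on the dm6 build. Per the file headers, the authors deposited 1 log2 fold change and 1 adjusted p-value per genomic interval and sex; counts, depths and values per library were not used here, so precision rests on the number of libraries. The labels name replicates but not separate animals, so p-values measure the spread between libraries. The numerator and the adjustment method are not stated; here the fold change is taken as H4K16R over HWT and the adjustment as Benjamini-Hochberg. The authors deposited the H4K16R female timing table as a linear S/G1 ratio, and log2 was taken here; the other deposited timing values were read as log2, since the HWT profile of the H3K9R table had a slope of 1.01 on log2 of the other HWT profile and 1.45 on its natural log. The bases of the male and yw tables are not stated. Deposited yw bins of 10 kb were averaged to windows of 100 kb, so yw and the other profiles may differ in resolution. The effect of this on the HWT minus yw differences was not tested.

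Unadjusted p-values were recovered from the adjusted ones by rank, standard errors from these and the fold change, and the sexes were compared by a z test, with Python 3.11.15, pandas 2.3.3, numpy 2.4.6 and scipy 1.17.1. These steps were tested on simulated data. Pericentromeric windows lie beyond 22 Mb on 2L and 23 Mb on 3L and below 6 Mb on 2R and 4 Mb on 3R. Named genes were every called gene and every measured list member whose role is described. The members and lists were chosen with earlier results of these data known. A planned search of promoter motifs was not run.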

Additional observations from a re-analysis of the deposited data

Results flagged for a closer look

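The genes below were singled out because the H4K16R effect in males differed from that in females by a test of the difference itself (z test, Benjamini-Hochberg adjusted over 8822 genes); the values are male minus female log2 fold changes from the authors' deposited tables. Unc-13 had 1.34 and asRNA:CR44029, which overlaps it, had 0.62. Cadps had -1.64 and was the only chromosome 4 gene called in both sexes, with opposite signs. CG31997 had -1.18, and its neighbour CG33978 had -0.37. The TGF-beta ligand gene mav had -0.50, and the SoxD gene Sox102F had -0.52. The male and female tables are separate fits of separate libraries, and a difference between the table-wide scales was not tested apart from the subtraction of the large autosome median, under which all 7 still passed.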

How the results depend on the processing

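No paired analysis was possible because the tables hold comparisons and group values, with none per library; leaving out replicates was not run for the same reason. Depth is unknown. In males the 13 lower entries became 7 at an adjusted p of 0.01, 1 under Holm adjustment and 8 with a log2 fold change of at least 0.5. The 9 higher ones became 5 under Holm, 5 as loci, 4 with gene names only and 4 within the gene-bearing part, a setting chosen after seeing the data. The male median moved from -0.017 to -0.093 with the large autosome median subtracted. The female call was lost under Holm (0). For the sex difference, the 5 lower genes became 9 after that subtraction, 2 at 0.01 and 1 under Holm, and the 2 higher ones 1 and 1. Of 30 single calls, 11 were lost at 0.01 and 22 under Holm.

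Timing counts at 0.2 in place of 0.1 fell to 1 of 5 lower (H4K16R females), 0 of 7 higher (H3K9R), 0 of 11 lower (male minus female HWT) and 0 of 5 higher (HWT minus yw). Without the first and last 100 kb these were 0 for H4K16R females, 3 for the sexes and 0 for yw, and with full windows only, also chosen after seeing the data, 0, 4 and 0. With the other table's HWT profile, the medians were -0.0022 for H4K16R females (reversed), 0.067 for H3K9R, -0.071 for the sexes and 0.042 for yw, with 3 lower, 28 higher, 31 lower and 11 higher windows. The large autosome medians moved as well, to -0.041, 0.034, -0.040 and 0.037 in the same order. With that profile and the large autosome median subtracted, added after seeing the data, H4K16R females had 4 higher and 1 lower, H3K9R 1 lower, the sexes 2 lower and yw 1 higher and 1 lower, with a yw median of -0.0055 (reversed). Subtraction alone gave 1 higher window in H4K16R males and a yw median of -0.00092 (reversed). The causes were not tested. Windows that do not overlap kept the sign of all 6 medians.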
